A study of Mus musculus with 12 samples.

Results

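Messenger RNA of 10 genes that mark mast cells and basophils was followed in lung and spleen of β3-/- mice, which lack integrin β3, and of wild-type (WT) mice. The genes were taken by symbol from a list that was chosen with earlier results of these data known. They were all present in the deposited tables, and are 10 of the 22924 gene identifiers listed there. The study sequenced 12 libraries, 1 per mouse and tissue, to ask how the loss of integrin β3 alters the immune state of the lung, and whether the spleen of the same animals is altered too. The groups were β3-/- lung, WT lung, β3-/- spleen and WT spleen, with 3 mice each, and lung and spleen of a genotype came from the same 3 animals. All mice were 8 to 10 weeks old, untreated, and on the C57BL/6 background. The deletion of *Itgb3* was constitutive, so every cell type of the animal carried it. WT mice were bought, whereas β3-/- mice were a gift from another laboratory, so that source and genotype cannot be told apart.

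Mast cells live in tissues such as the skin, the gut and the airway, and basophils circulate in blood and pass through the spleen. Both carry FcεRI, the high-affinity receptor for IgE, and both store proteases in granules that are released when IgE on their surface is cross-linked. Interleukin-3, which acts through the receptor chain encoded by *Il3ra*, expands both lineages, and the transcription factor GATA2 is needed for their development. In a whole lung or spleen these cells are rare. In RNA of a whole tissue, a change in the number of such cells and a change in RNA per cell cannot be told apart.

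Values are FPKM, that is, fragments per kilobase of transcript in relation to all fragments mapped, which allows levels of different genes to be set side by side. The files hold no counts, so the depth behind each value is unknown, and its precision is taken from the spread between mice. FPKM added up over all genes came to 470647 to 489157 in β3-/- lungs and 455850 to 465356 in WT lungs, and to 551345 to 593175 in β3-/- spleens and 494298 to 508224 in WT spleens. The tissue labels held: 5 markers of alveolar type 2 cells summed to 17692 to 20974 FPKM in β3-/- lungs and 16435 to 27556 FPKM in WT lungs, against 0.547 to 0.641 FPKM in β3-/- spleens and 0.386 to 0.491 FPKM in WT spleens. *Itgb3* had 1.94, 1.34 and 1.29 FPKM in β3-/- lungs 1, 2 and 3, against 3.68, 4.39 and 4.14 FPKM in WT lungs. In spleen it had 3.57, 4.02 and 3.52 FPKM in β3-/- mice, against 10.6, 8.95 and 8.50 FPKM in WT mice. The log2 fold change was -1.38 (SE 0.20, adjusted p = 0.0642) in lung and -1.31 (SE 0.13, adjusted p = 0.00552) in spleen. *Ddx3y*, a Y-linked gene, was listed at 0 in every β3-/- library and at 22.7 to 25.2 FPKM in WT lungs and 16.9 to 22.0 FPKM in WT spleens, so that sex and genotype cannot be told apart. The library of β3-/- spleen 3 stood apart from the rest, with 4467 FPKM summed over 8 neutrophil granule genes, against 683 and 1052 FPKM in the other β3-/- spleens and 305 to 368 FPKM in WT spleens.

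The 10 genes lie on 6 chromosomes of the mouse genome (GRCm39). The chymase genes *Cma1* (chr14:56178908-56182132) and *Mcpt4* (chr14:56297086-56299770) share a cluster with *Mcpt8* (chr14:56319623-56322730), and *Ctsg*, the gene of the neutrophil protease cathepsin G, is next to *Mcpt8* at chr14:56337338-56340031. All 4 of these are on the minus strand. *Il3ra* lies far from the cluster on the same chromosome (chr14:8113752-8123508). The tryptase genes *Prss34* (chr17:25517368-25519142) and *Tpsb2* (chr17:25585170-25588079) belong to a tryptase cluster on chromosome 17. *Cpa3* is at chr3:20269774-20296362, *Gata2* at chr6:88170559-88184018, *Fcer1a* at chr1:173048851-173054781 and *Ms4a2* at chr19:11592887-11601083. Related proteases can share reads, so shared sequence was counted. The genes compared were *Cma1*, *Mcpt4*, *Mcpt8*, *Mcpt1*, *Mcpt2*, *Mcpt9*, *Cma2*, *Ctsg*, *Tpsb2*, *Tpsab1*, *Tpsg1* and *Prss34*, and not every gene of the clusters. Transcripts of *Cma1* and *Mcpt8* shared no stretch of 31 bases with the others compared. In *Mcpt4*, 10.2% of such stretches were also in *Cma2*, which was listed at 0 in every library. In *Tpsb2*, 0.54% of them were also in *Tpsab1*.

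GATA2 binds the letters GATA, and the upstream sequence of 3 members, chosen by the results below, is shown. *Cma1* and *Mcpt4* are chymases of a shared cluster that differed in opposite directions in lung, where neither passed the test between genotypes. *Cpa3* was the only member that passed it in spleen. Each line gives the 250 bases before the start of the RefSeq gene, 5′ to 3′ on the gene's own strand, from the RefSeq promoter table of GRCm38.p6, placed by exact match at chr14:56182133-56182382, chr14:56299768-56300017 and chr3:20296346-20296595 of GRCm39. Capitals mark GATAA or, for the other strand, TTATC.
Cma1: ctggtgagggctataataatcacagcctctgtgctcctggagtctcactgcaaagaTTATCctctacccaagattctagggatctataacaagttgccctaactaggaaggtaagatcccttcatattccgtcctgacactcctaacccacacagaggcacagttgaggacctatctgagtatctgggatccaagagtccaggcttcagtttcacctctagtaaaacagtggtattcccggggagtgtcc
Mcpt4: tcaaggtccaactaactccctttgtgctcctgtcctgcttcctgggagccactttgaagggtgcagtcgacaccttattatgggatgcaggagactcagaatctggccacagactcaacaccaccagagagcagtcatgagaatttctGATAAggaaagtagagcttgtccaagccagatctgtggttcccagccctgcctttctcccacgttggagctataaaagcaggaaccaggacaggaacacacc
Cpa3: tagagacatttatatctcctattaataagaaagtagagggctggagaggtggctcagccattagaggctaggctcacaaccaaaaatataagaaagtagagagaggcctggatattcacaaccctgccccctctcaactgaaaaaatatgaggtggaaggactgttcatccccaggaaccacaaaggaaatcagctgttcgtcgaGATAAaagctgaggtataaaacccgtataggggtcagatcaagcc
The match began 194 bases before the start in *Cma1*, 102 bases before it in *Mcpt4* and 45 bases before it in *Cpa3*. Of the 9 members found in the table, 6 held GATAA on either strand in this window (*Cma1*, *Mcpt4*, *Cpa3*, *Fcer1a*, *Prss34* and *Ms4a2*, the last with 3 matches), and *Mcpt8*, *Il3ra* and *Gata2* held none. The share over all 27025 genes of the table was 23.0%. A match is a description of these letters and does not show binding.

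Levels spanned a wide range, and the order of the genes differed between the tissues. In β3-/- lungs *Gata2* averaged 42.8 ± 2.66 FPKM, *Il3ra* 9.87 ± 2.41 FPKM, *Cma1* 2.94 ± 0.336 FPKM and *Cpa3* 1.05 ± 0.236 FPKM (mean ± SD, n = 3), and each was above the next gene in this order in every library. WT lungs gave the same order for these 4 genes, with 42.2 ± 6.40, 12.6 ± 1.51, 1.29 ± 0.509 and 0.676 ± 0.0872 FPKM (n = 3). There *Gata2*, *Il3ra* and *Cma1* each stood above the next gene in every library, whereas the values of *Cpa3* overlapped those of *Mcpt4*, the next gene. *Ms4a2*, *Mcpt8*, *Fcer1a*, *Mcpt4*, *Prss34* and *Tpsb2* each lay at 0.736 FPKM or below in every lung. In β3-/- spleens the leading genes were *Il3ra* with 7.06 ± 0.515 FPKM, *Prss34* with 5.42 ± 5.31 FPKM, *Gata2* with 4.38 ± 0.773 FPKM and *Mcpt8* with 4.02 ± 3.71 FPKM (n = 3), and no neighbours in this order were separate. In WT spleens *Il3ra* averaged 6.78 ± 1.16 FPKM and *Gata2* 3.11 ± 0.537 FPKM (n = 3), each above the next gene in every library, and each of the other 8 genes overlapped the next in the order. The plot of FPKM by library shows that the basophil protease genes *Mcpt8* and *Prss34* spread widely among β3-/- spleens, with mouse 3 on top.

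**Figure D1:**
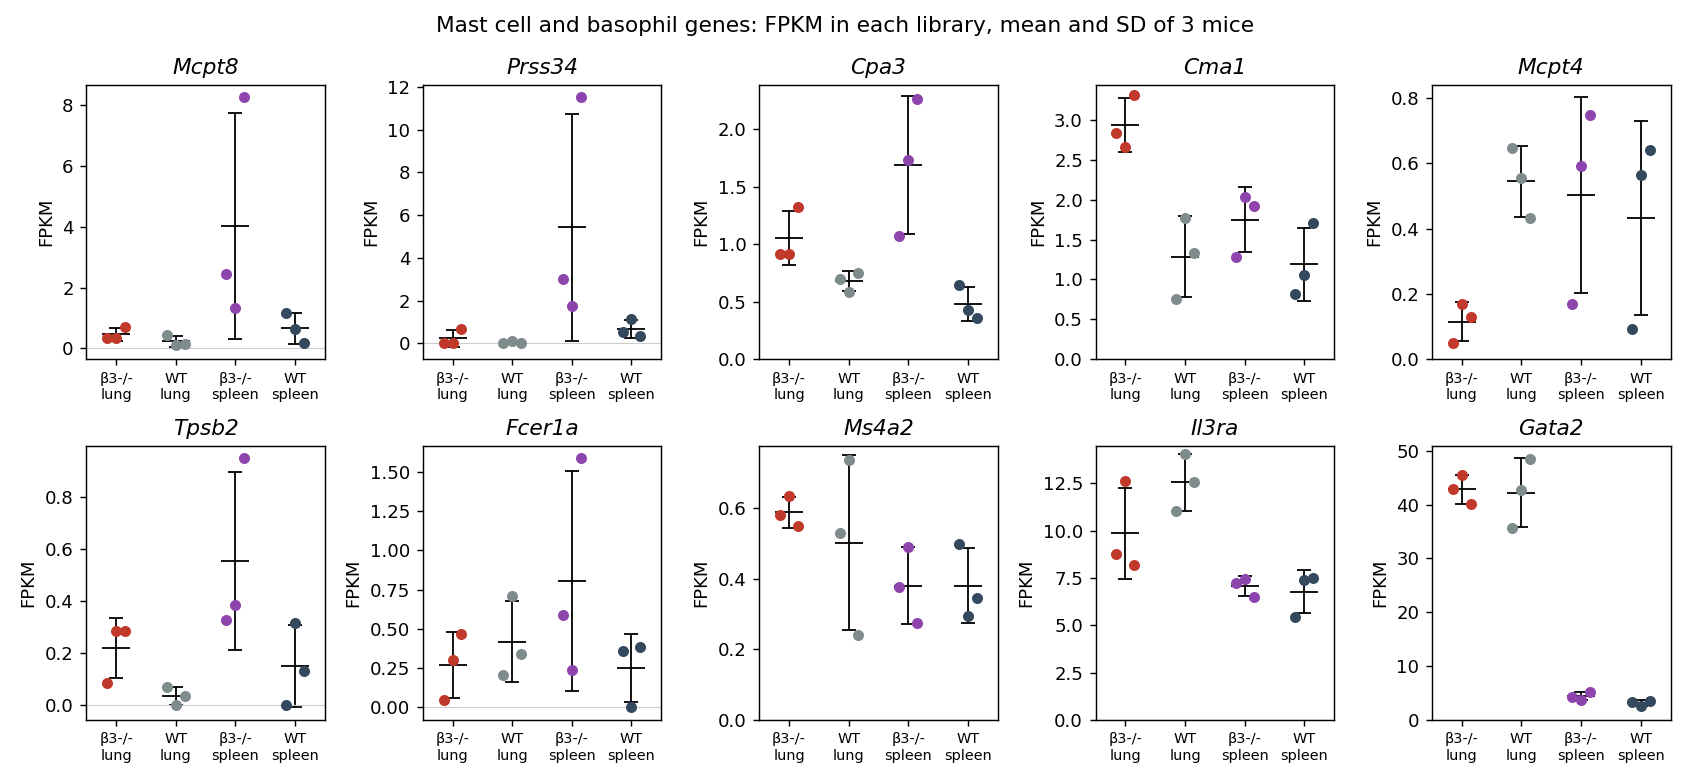
FPKM of the 10 genes in each library (points), with the mean (long bar) and SD (whiskers) of 3 mice per group; each panel has its own linear axis. Mcpt8 and Prss34 reached 8.25 and 11.5 FPKM in β3-/- spleen 3, Cma1 lay at 2.66 FPKM or above in all β3-/- lungs, and Gata2 lay at 35.6 FPKM or above in all lungs and at 5.18 FPKM or below in all spleens.

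In lung, no member passed the test between genotypes. Of the 8 members tested, 2 mast cell protease genes, *Cma1* and *Cpa3*, were higher in β3-/- mice without overlap, against 6.86% of all genes tested. Another, *Mcpt4*, was lower without overlap, against 12.6%. The mast cell protease gene *Tpsb2*, too low to be tested, was also higher without overlap. *Cma1*, the gene of mast cell protease 5, had 2.84, 2.66 and 3.31 FPKM in β3-/- lungs, against 0.754, 1.77 and 1.33 FPKM in WT lungs. All 3 β3-/- lungs lay above the highest WT lung, and the fitted difference of the group means was 1.20 on the log2 scale (SE 0.30, unadjusted p = 0.00569, adjusted p = 0.2). *Mcpt4*, a chymase of connective tissue mast cells, had 0.0485, 0.168 and 0.129 FPKM in β3-/- lungs, against 0.648, 0.555 and 0.432 FPKM in WT lungs. Here every β3-/- lung lay below every WT lung, with a log2 fold change of -1.61 (SE 0.35, unadjusted p = 0.00271, adjusted p = 0.158). At such low levels its size depended on the pseudocount, with -0.47 for *Mcpt4* at a pseudocount of 1 and -2.28 at 0.01. *Cpa3*, the gene of mast cell carboxypeptidase A, had 0.917, 0.916 and 1.32 FPKM in β3-/- lungs, against 0.698, 0.580 and 0.750 FPKM in WT lungs, a difference of 0.56 on the log2 scale (SE 0.24, adjusted p = 0.403).

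Differences between genotypes were tested with limma on log2(FPKM + 0.1), a scale that understates the change of genes near or below 0.1 FPKM, and p-values were adjusted over all tested genes. The 8 members that had at least 0.1 FPKM in at least 3 of 6 lungs were tested, and 0 of them passed at an adjusted p below 0.05, against 0.328% of all 15869 genes tested. At an unadjusted p below 0.05 there was 1 member higher, against 4.95% of all genes, and 1 lower, against 7.7%. Groups did not overlap for 3 of 8, 2 higher and 1 lower, against 19.5% of all genes, 6.86% higher and 12.6% lower. The median log2 fold change of the 8 was 0.16, and that of all genes tested was -0.02. An exact two-sided permutation test gave p = 0.1, the smallest that 3 mice against 3 allow, for *Cma1*, *Mcpt4*, *Cpa3* and *Tpsb2* (n = 3 each). For these genes this value follows from the separation of their groups and is no further evidence.

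Among the other members, *Mcpt8*, the gene of the basophil protease mMCP-8, had 0.343, 0.346 and 0.699 FPKM in β3-/- lungs, against 0.434, 0.117 and 0.151 FPKM in WT lungs, and the groups overlapped. *Fcer1a*, which encodes the IgE-binding chain of FcεRI, had 0.0437, 0.300 and 0.464 FPKM in β3-/- lungs, against 0.205, 0.708 and 0.342 FPKM in WT lungs, with overlap. *Ms4a2*, the signal-amplifying β chain of that receptor, had 0.580, 0.636 and 0.550 FPKM in β3-/- lungs, against 0.531, 0.736 and 0.240 FPKM in WT lungs. *Il3ra* had 8.77, 12.6 and 8.20 FPKM in β3-/- lungs, against 11.0, 14.0 and 12.6 FPKM in WT lungs, a difference of -0.36 on the log2 scale (SE 0.18, adjusted p = 0.473). *Gata2* differed by 0.03 on the log2 scale (SE 0.12, adjusted p = 0.944), with a 95% interval from -0.26 to 0.32. Adjusted p lay between 0.473 and 0.944 for these 5 genes. The basophil tryptase gene *Prss34* and the mast cell tryptase gene *Tpsb2* were below the filter. *Prss34* was listed at 0, 0.0294 and 0.679 FPKM in β3-/- lungs and at 0, 0.0897 and 0.0271 FPKM in WT lungs. *Tpsb2* was listed at 0.0839, 0.284 and 0.286 FPKM in β3-/- lungs and at 0.0699, 0 and 0.0341 FPKM in WT lungs, groups that did not overlap.

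**Figure D2:**
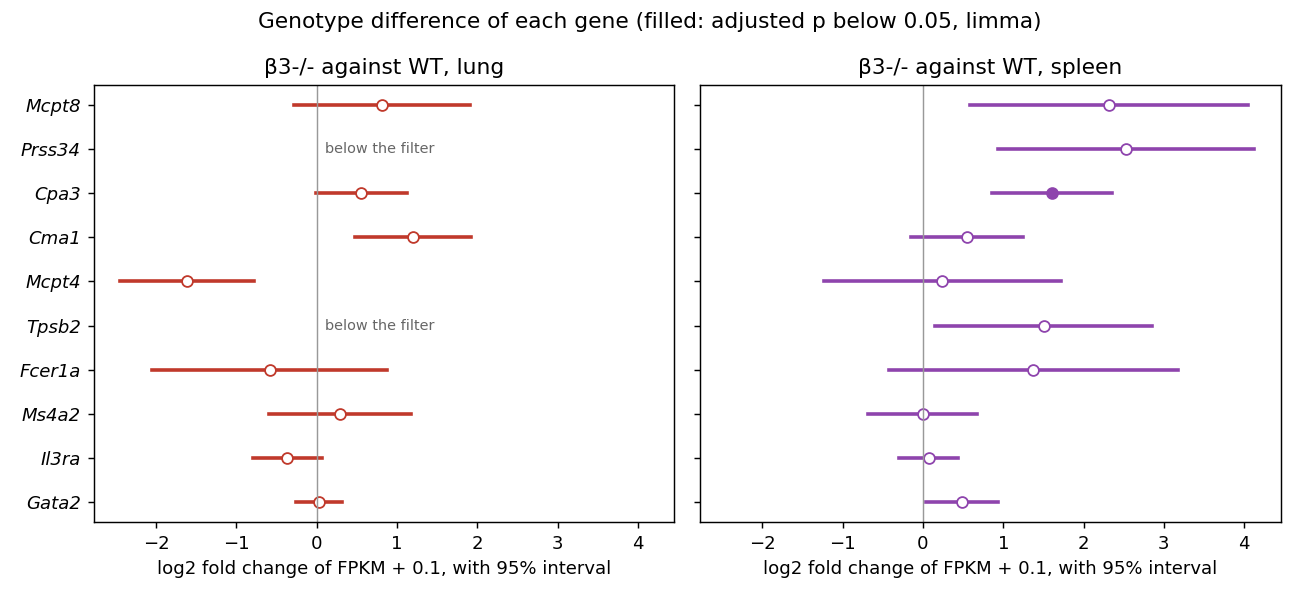
Log2 fold change of FPKM + 0.1, β3-/- against WT, with its 95% interval, for each gene in lung (left) and spleen (right); filled points have an adjusted p below 0.05 from limma. Cpa3 in spleen, at 1.61, is the only filled point; in lung, Cma1 at 1.20 and Mcpt4 at -1.61 have intervals that lie on opposite sides of 0.

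The contrast between the chymase genes was looked at within each library, a measure chosen after the values of both genes were seen. The ratio of *Cma1* to *Mcpt4* was 58.6, 15.9 and 25.7 in β3-/- lungs, against 1.16, 3.19 and 3.08 in WT lungs. That the lung groups do not overlap follows from the separation of both genes and is no further evidence. In spleen the ratio was 7.66, 3.44 and 2.58 in β3-/- mice, against 8.83, 1.86 and 2.65 in WT mice, and the groups overlapped. As the ratio divides by *Mcpt4* values as low as 0.0485 FPKM, its size in β3-/- lungs is imprecise.

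**Figure D3:**
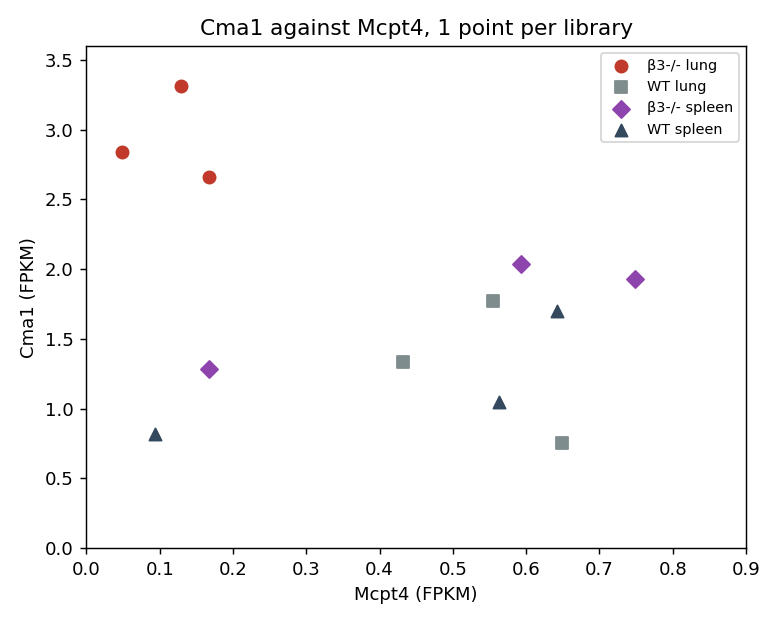
FPKM of Cma1 (vertical axis) against FPKM of Mcpt4 (horizontal axis), 1 point per library, on linear axes. The 3 β3-/- lungs lie at the upper left, at 2.66 to 3.31 FPKM of Cma1 and 0.0485 to 0.168 FPKM of Mcpt4, apart from the 3 WT lungs and from all spleens.

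The ubiquitin gene *Ubb* split the lungs of both genotypes, with 678 FPKM in β3-/- lung 3 and 570 and 688 FPKM in WT lungs 1 and 2, but only 4.52 to 4.97 FPKM in the other lungs. Within the group with high *Ubb* the log2 fold change was 1.43 for *Cma1*, -1.61 for *Mcpt4* and 0.95 for *Cpa3*. Within the group with low *Ubb* it was 0.99, -1.42 and 0.26 for the same genes. The direction of these 3 genes is fixed by the separation of their groups, and each *Ubb* group has 1 library on one side of the comparison. Of the members whose genotypes overlapped, *Prss34* (2.50 with high and -0.16 with low *Ubb*), *Fcer1a* (0.18 and -0.88), *Ms4a2* (-0.16 and 1.06) and *Gata2* (0.04 and -0.13) changed direction between the *Ubb* groups. Markers of other tissues and cells differed along with genotype in lung. Mesothelial markers (4 genes) summed to 25.0 to 63.6 FPKM in β3-/- lungs and 14.1 to 24.8 FPKM in WT lungs, with 2 of 4 genes higher without overlap. Exocrine pancreas markers (10 genes) summed to 3.07 to 5.63 FPKM in β3-/- lungs and 7.28 to 34.5 FPKM in WT lungs, with 5 of 10 genes lower without overlap. Plasmacytoid dendritic cell markers (6 genes), of cells that also carry the interleukin-3 receptor, summed to 72.3 to 90.0 FPKM in β3-/- lungs and 54.7 to 66.8 FPKM in WT lungs. Of these, 2 of 6 genes, *Siglech* and *Ccr9*, were higher without overlap. Most of the sums came from *Irf8*, *Tcf4* and *Cox6a2*, whose genotypes overlapped. None of the mesothelial, pancreas and plasmacytoid dendritic cell markers passed the test in lung. Megakaryocyte and platelet markers (8 genes, 5 higher without overlap) summed to 64.3 to 89.8 FPKM in β3-/- lungs and 39.0 to 46.9 FPKM in WT lungs, with *Ppbp* called as higher. Erythroid markers (7 genes, 5 tested) summed to 49.6 to 70.4 FPKM in β3-/- lungs and 22.9 to 26.2 FPKM in WT lungs, with *Alas2* called as higher. Neutrophil granule markers (8 genes, 3 higher without overlap, 0 called) summed to 226 to 369 FPKM in β3-/- lungs and 263 to 294 FPKM in WT lungs. For all these lists, their part in the member values was not tested.

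In spleen, *Cpa3* rose in β3-/- mice, and *Prss34*, *Mcpt8*, *Tpsb2* and *Gata2* were higher without overlap between the genotypes but did not pass the test. *Cpa3* had 1.07, 1.73 and 2.26 FPKM in β3-/- spleens, against 0.642, 0.427 and 0.356 FPKM in WT spleens. The lowest β3-/- spleen lay above the highest WT spleen, with a difference of 1.61 on the log2 scale (SE 0.32, adjusted p = 0.036 from limma). *Prss34*, which encodes a tryptase that basophils express, had 3.03, 1.73 and 11.5 FPKM in β3-/- spleens, against 0.512, 1.16 and 0.349 FPKM in WT spleens, a difference of 2.53 on the log2 scale (SE 0.68, adjusted p = 0.0559). *Mcpt8* had 2.46, 1.34 and 8.25 FPKM in β3-/- spleens, against 1.17, 0.626 and 0.173 FPKM in WT spleens, a difference of 2.31 on the log2 scale (SE 0.74, adjusted p = 0.077). Both basophil protease genes were highest in β3-/- spleen 3, and the other β3-/- spleens were still above every WT spleen.

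All 10 members were tested in spleen, and 1 of them was called, which also had a log2 fold change above 1. Of all 15480 genes tested, 9.05% were called, 3.66% as higher and 5.39% as lower, and 2.64% were called as higher with a log2 fold change above 1. At an unadjusted p below 0.05 there were 5 members, all higher, against 9.67% of all genes that were higher. Groups did not overlap for 5 of 10 members, all higher in β3-/- mice, against 11.4% of all genes that were higher and 32% that were lower without overlap. The median log2 fold change was 0.96 over the 10 members and -0.16 over all genes tested. Rescaling every library to an equal total (TPM) put the median of all genes at -0.36, and median-of-ratios scaling put it at -0.00, and the share of called genes that were higher, 40.5% as deposited, was 11.9% and 73.0% under these scalings. In the same order the log2 fold change of *Cpa3* was 1.50 and 1.75, that of *Prss34* 2.42 and 2.68, and that of *Mcpt8* 2.23 and 2.46.

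Among the remaining mast cell genes none passed the test. *Tpsb2* had 0.325, 0.386 and 0.950 FPKM in β3-/- spleens, against 0, 0.316 and 0.129 FPKM in WT spleens, a difference of 1.50 on the log2 scale (SE 0.58, adjusted p = 0.113). For *Cma1* the values were 1.28, 2.04 and 1.93 FPKM in β3-/- spleens, against 0.822, 1.05 and 1.70 FPKM in WT spleens, and the groups overlapped (log2 fold change 0.55, SE 0.30, adjusted p = 0.221). *Mcpt4* had 0.168, 0.592 and 0.748 FPKM in β3-/- spleens, against 0.0930, 0.563 and 0.642 FPKM in WT spleens, and the groups overlapped (log2 fold change 0.24, SE 0.63, adjusted p = 0.804). Among the receptor chains, *Fcer1a* had 0.590, 0.237 and 1.59 FPKM in β3-/- spleens, against 0.361, 0 and 0.387 FPKM in WT spleens, a difference of 1.38 on the log2 scale (SE 0.77, adjusted p = 0.234). It was 0.63 for *Fcer1a* without WT spleen 2, the library listed at 0, and 0.77 without β3-/- spleen 3. The other receptor chains differed little, *Ms4a2* by -0.00 (95% interval -0.68 to 0.68) and *Il3ra* by 0.07 (95% interval -0.29 to 0.43) on the log2 scale. *Gata2* had 4.31, 3.64 and 5.18 FPKM in β3-/- spleens, against 3.23, 2.52 and 3.57 FPKM in WT spleens, a difference of 0.48 on the log2 scale (SE 0.19, adjusted p = 0.121).

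At a pseudocount of 1 the log2 fold change of *Cpa3* was 0.84 (adjusted p = 0.0391). Without β3-/- spleen 3 no member was called, and the log2 fold change was 1.38 for *Cpa3* (adjusted p = 0.0787), 1.77 for *Prss34* and 1.61 for *Mcpt8*. The call of *Cpa3* was also lost without WT spleen 2 (adjusted p = 0.137), without WT spleen 3 (0.105), and without β3-/- spleen 2 and WT spleen 2 together (0.119), the libraries that held pancreas transcripts. Without β3-/- spleen 2 alone, 3 members were called, *Cpa3*, *Prss34* and *Mcpt8*.

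Genes of other blood lineages differed along with the basophil protease genes *Mcpt8* and *Prss34* in spleen. The genotypes overlapped for the basophil markers *Cd200r3* (log2 fold change 0.25, adjusted p = 0.598 from limma), *Ms4a2* (-0.00) and *Fcer1a* (1.38). Of 13 further surface receptors of mast cells and basophils tested in spleen, 3 were lower and 2 higher at an unadjusted p below 0.05. Lower were *Adora3* (given below), *Hrh4* (-1.02) and *Enpp3* (-0.77), and higher were *Il1rl1* (1.41) and *Fcer1g* (0.39). Only *Adora3* passed the test. *Ctsg*, the neighbour of *Mcpt8*, had 6.14, 4.56 and 41.3 FPKM in β3-/- spleens, against 2.11, 1.95 and 0.336 FPKM in WT spleens. All 8 neutrophil granule genes were higher without overlap, among them *Mpo*, the myeloperoxidase gene, with 26.3, 16.1 and 116 FPKM in β3-/- spleens, against 6.94, 4.25 and 3.62 FPKM in WT spleens, and 3 of the 8 passed the test. Like *Mcpt8* and *Prss34*, these 8 genes were highest in β3-/- spleen 3: *Mpo* was 5.49 times, *Prss34* 4.83 times and *Mcpt8* 4.34 times the mean of the other β3-/- spleens. *Cpa3*, at 1.62 times, stood out less there. *Fcer1a* was at 3.84 times, *Cd200r3* at 1.18 times and *Ms4a2* at 0.63 times. Eosinophil markers (6 genes) summed to 83.5 to 298 FPKM in β3-/- spleens and 44.1 to 48.1 FPKM in WT spleens, with *Epx*, *Ear6* and *Ccr3* called as higher and *Il5ra* as lower. *Prg2*, which eosinophils express most strongly and basophils also express, had 47.3, 33.3 and 203 FPKM in β3-/- spleens, against 18.5, 18.8 and 14.8 FPKM in WT spleens. Erythroid markers (7 genes, 6 called) summed to 865 to 2141 FPKM in β3-/- spleens, against 53.7 to 351 FPKM in WT spleens. B cell markers (5 genes, 3 called as lower) summed to 1011 to 1459 FPKM in β3-/- spleens, against 1859 to 1969 FPKM in WT spleens. Megakaryocyte and platelet markers (8 genes, all higher without overlap, 3 called) summed to 317 to 1466 FPKM in β3-/- spleens, against 122 to 190 FPKM in WT spleens, and were in β3-/- spleen 3 between 3.18 and 4.56 times the mean of the other β3-/- spleens. Hematopoietic progenitor markers (7 genes, 4 higher without overlap, 1 called) summed to 135 to 173 FPKM in β3-/- spleens, against 97.1 to 122 FPKM in WT spleens. Adipocyte markers (5 genes, 0 called) summed to 26.8 to 276 FPKM in β3-/- spleens, against 0.710 to 52.5 FPKM in WT spleens, with the highest value in β3-/- spleen 3. The part of these lineages and tissues in the member values was not tested.

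**Figure D4:**
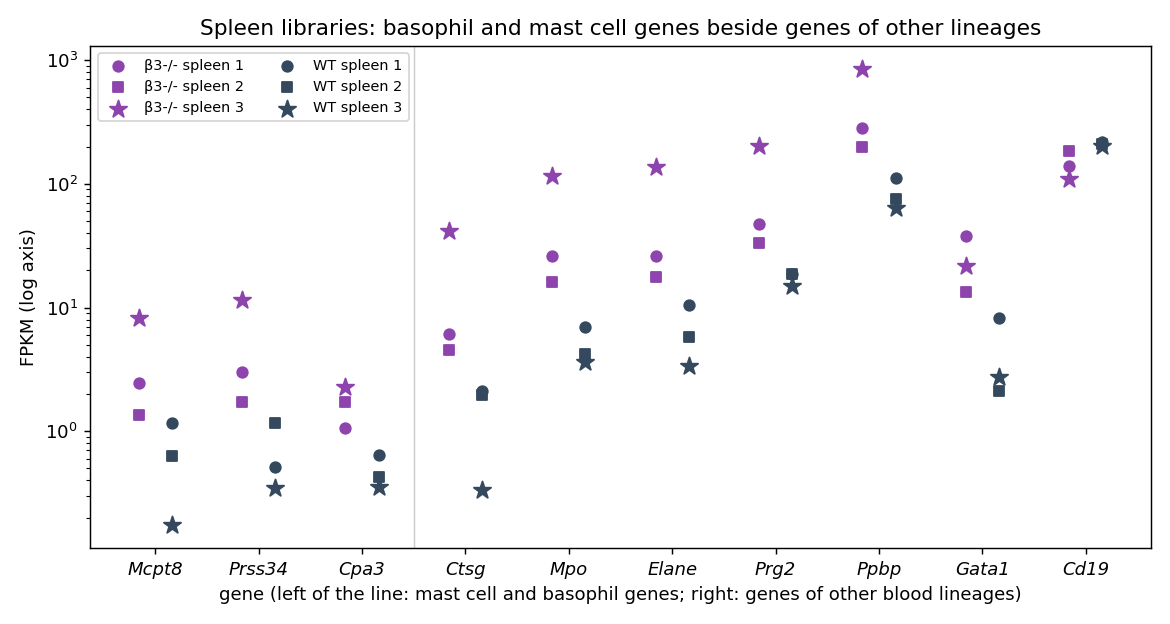
FPKM (log axis) in each spleen library of Mcpt8, Prss34 and Cpa3 (left of the line) and of genes of other blood lineages (right), with β3-/- spleens left of WT spleens in each column. Ctsg and Gata1, on the right, are also in the lists of further mast cell and basophil genes. Star-shaped symbols mark mouse 3 of each genotype: β3-/- spleen 3 is the highest library for Mcpt8, Prss34, Ctsg, Mpo, Elane, Prg2 and Ppbp, while Gata1 is highest in β3-/- spleen 1, at 37.6 FPKM.

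No difference between the genotype effects in lung and in spleen passed the test for any member. Of all 16312 genes tested in a fit of all 12 libraries, 0.417% were called. At an unadjusted p below 0.05 there were 2 members, both with a lower effect in lung: *Cpa3* at -1.05 (SE 0.41, unadjusted p = 0.0258, adjusted p = 0.196) and *Mcpt4* at -1.86 (SE 0.77, unadjusted p = 0.034, adjusted p = 0.221), against 6.3% of all genes. With mouse as a block, which pairs lung and spleen of an animal, 25 genes were called in place of 68, and no member was among them.

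*Gata2* and *Il3ra* were higher in lung than in spleen in both genotypes. In β3-/- mice *Gata2* had 42.8, 45.5 and 40.2 FPKM in lungs, against 4.31, 3.64 and 5.18 FPKM in spleens, a difference of 3.27 on the log2 scale (SE 0.16, adjusted p = 8.47e-09). In WT mice it had 35.6, 42.7 and 48.4 FPKM in lungs, against 3.23, 2.52 and 3.57 FPKM in spleens, a difference of 3.72 on the log2 scale (SE 0.16, adjusted p = 2.74e-09). *Kit*, the receptor for stem cell factor, showed the same contrast, with 42.8 to 44.9 FPKM in β3-/- lungs against 9.47 to 10.7 FPKM in β3-/- spleens, and 40.2 to 47.0 FPKM in WT lungs against 9.996 to 11.1 FPKM in WT spleens. Endothelial cells also express *Gata2*, and 9 endothelial markers summed to 1433 to 1579 FPKM in β3-/- lungs against 166 to 195 FPKM in β3-/- spleens, and to 1213 to 1491 FPKM in WT lungs against 161 to 182 FPKM in WT spleens. Their part in the *Gata2* level was not tested.

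For *Il3ra* the log2 fold change of lung over spleen was smaller, at 0.45 in β3-/- mice (SE 0.18, adjusted p = 0.0386) and 0.89 in WT mice (SE 0.18, adjusted p = 0.000767). The β3-/- call was lost without β3-/- lung 2 (0.26, adjusted p = 0.172) and without β3-/- spleen 1, 2 or 3 (0.39 to 0.49, adjusted p = 0.0539 to 0.106). *Prss34* entered this comparison through its spleen libraries, being under the filter in lung, so that its log2 fold change of lung over spleen, -4.23 in β3-/- mice and -2.39 in WT mice, is a description. In WT mice it was -0.66 at a pseudocount of 1. For *Mcpt8* lung over spleen was -2.54 in β3-/- mice (SE 0.68, adjusted p = 0.00583) and -1.04 in WT mice (SE 0.68, adjusted p = 0.19). In β3-/- mice *Mcpt4* was also lower in lung, at -1.37 (SE 0.54, adjusted p = 0.0424), a call that 12 of 19 alternatives lost, with an adjusted p of up to 0.147. *Cma1* was higher in β3-/- lung than in β3-/- spleen without overlap, at 0.74 (SE 0.32, adjusted p = 0.0595), and passed in 6 of 20 alternatives, among them the fit with mouse as a block (adjusted p = 0.0345). *Tpsb2* was likewise under the filter in lung, which leaves 8 members. In β3-/- mice 2 of these 8 were called as higher in lung, against 35.3% of all genes tested, and 2 as lower, against 32.6%. In WT mice 2 were called as higher, against 33.3%, and 0 as lower, against 37.8%. Groups did not overlap for 4 of the 8 that were higher and 2 that were lower in β3-/- mice, against 36.5% and 33.6% of all genes, and for 2 that were higher and 0 that were lower in WT mice, against 34.8% and 41%.

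Other genes of the same cells were read from lists. Of 12 further granule protease and mediator genes, 5 were tested in each tissue and none passed in either. Without overlap, 1 of these 5 was lower in lung, against 12.6% of all genes, and 4 were higher in spleen, against 11.4%. *Tpsg1*, *Mcpt1*, *Mcpt2*, *Mcpt9*, *Cma2*, *Tpsab1* and *Tph1* were below the filter. In spleen *Mcpt1* (0.163, 0.138 and 0.0997 FPKM in β3-/- mice, 0 in every WT mouse) was higher without overlap. So was *Mcpt2* (0.304, 0.0951 and 0.209 FPKM, against 0.0378, 0 and 0 FPKM). *Hdc*, whose enzyme makes histamine, had 37.0, 37.1 and 24.8 FPKM in β3-/- lungs, against 26.1, 13.7 and 27.2 FPKM in WT lungs, and the groups overlapped. In spleen *Hdc* had 6.31, 5.17 and 9.60 FPKM in β3-/- mice, against 3.24, 2.50 and 4.45 FPKM in WT mice, higher without overlap (log2 fold change 1.02, SE 0.28, adjusted p = 0.058). Of 16 further surface receptors of mast cells and basophils, 14 were tested in lung with 0 called, against 0.328% of all genes. In spleen 13 were tested with 1 called, against 9.05% of all genes. There 3 were lower and 1 was higher without overlap, against 32% and 11.4% of all genes. *Adora3*, an adenosine receptor of mast cells, fell in spleen, with 0.162, 0.363 and 0.445 FPKM in β3-/- mice, against 1.18, 1.26 and 1.22 FPKM in WT mice (log2 fold change -1.71, SE 0.31, adjusted p = 0.0313). *Fcer1g*, the signaling chain that FcεRI shares with other Fc receptors, had 163 to 232 FPKM in β3-/- spleens and 127 to 153 FPKM in WT spleens (adjusted p = 0.117).

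Downstream of the receptor, 16 signaling genes were tested in both tissues. None was called in lung. In spleen 1 was called, as lower, against 5.39% of all genes. There 10 of 16 were lower without overlap, against 32% of all genes. The median log2 fold change of the 16 was -0.32, against -0.16 over all genes. In the same spleens 4 of 5 B cell markers were lower without overlap, with a median log2 fold change of -0.62. The part of B cells in the values of the signaling genes was not tested. *Lat2*, an adaptor of mast cells and B cells, fell in spleen by 0.78 on the log2 scale (SE 0.18, adjusted p = 0.0452), with 24.0, 32.2 and 19.6 FPKM in β3-/- mice, against 48.0, 41.1 and 39.2 FPKM in WT mice. Of 10 further transcription factors, *Gata1* (log2 fold change 2.58, adjusted p = 0.0393) and *Tal1* (2.95, adjusted p = 0.0385) rose in spleen and *Spi1* (-0.34, adjusted p = 0.0468) fell, with 0 called in lung. Of all genes tested in spleen, 3.66% were called as higher and 5.39% as lower. *Gata1* and *Tal1* also drive red cell formation, and *Gata1* had 37.6, 13.3 and 21.6 FPKM in β3-/- spleens, against 8.22, 2.11 and 2.72 FPKM in WT spleens, beside the erythroid sums given above.

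Of 9 growth factor and cytokine genes, 6 were tested in lung and 5 in spleen, and none was called in either. *Kitl*, which encodes stem cell factor, the main growth factor of mast cells, had 46.1, 49.2 and 43.0 FPKM in β3-/- lungs, against 60.6, 68.4 and 61.1 FPKM in WT lungs. All β3-/- lungs lay below all WT lungs (log2 fold change -0.46, SE 0.08, adjusted p = 0.122). In spleen *Kitl* had 11.9, 13.7 and 12.2 FPKM in β3-/- mice, against 10.8, 10.1 and 10.6 FPKM in WT mice (log2 fold change 0.26, SE 0.10, adjusted p = 0.112). The difference between these effects passed the test, at -0.72 (adjusted p = 0.0364). Without WT spleen 2, or without WT spleen 3, no gene was called with a lower effect in lung, so this call was lost there. *Il3* and *Il9* were listed at 0 in every library. Of 7 eicosanoid synthesis genes none was called in lung, and *Ptgs1*, the gene of cyclooxygenase-1, rose in spleen, with 22.3, 25.0 and 30.1 FPKM in β3-/- mice, against 17.1, 16.1 and 19.4 FPKM in WT mice (log2 fold change 0.55, SE 0.13, adjusted p = 0.048). It was the only 1 of the 7 called there, against 3.66% of all genes called as higher.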

How the data were processed

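RNA of lung and spleen from 3 β3-/- and 3 WT mice was measured in 12 libraries. The submitters' processing notes name Trimmomatic, HISAT2, featureCounts and the build GRCm39, and the methods name DESeq2 for the authors' own tests. The deposited values are FPKM, and the tool by which the authors computed them is not given in the sources used here. Methods name TRIzol for RNA isolation, whereas the labels name RNeasy (Qiagen) and a SMARTER mRNA kit. Counts were not used here, so DESeq2 was not run; the smallest value above 0 was 1e-06.

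Genes with at least 0.1 FPKM in at least 3 libraries of a tissue were tested on log2(FPKM + 0.1) with limma-trend (limma 3.58.1, R 4.3.3), between genotypes within a tissue without covariates, and between tissues, or for the difference of genotype effects, in a fit of all 12 libraries. Adjusted p are from limma, by the Benjamini-Hochberg method over all tested genes, and a gene was called below 0.05. SE is limma's moderated standard error. The tests were run on simulated data beforehand. Lung and spleen came from the same mice, but the main fit of all 12 libraries had no term for mouse, and mouse as a block was an alternative. The correlation between lung and spleen of same-numbered deviations from group means was 0.06 to 0.14 in β3-/- mice and 0.02 to 0.09 in WT mice.

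The members and lists were chosen with earlier results of these data known. All 10 members were named, with *Itgb3* and up to 4 genes of each other list, those past the test first and then the most abundant. *Ctsg*, *Cd200r3*, *Il3*, *Il9*, the genes below the filter, *Prg2* and the ratio of *Cma1* to *Mcpt4* were singled out after their values were seen. So were *Hrh4*, *Enpp3* and *Il1rl1*. Alternatives were other pseudocounts, filters and scalings, sample weights, blocks, a single fit of all libraries, the *Ubb* library group, and each library left out; they were run for the members only. Gene positions and transcripts are from GENCODE vM39, upstream sequence from RefSeq.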

Additional observations from a re-analysis of the deposited data

How the results depend on the processing

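In lung, 0 members were called under all 16 alternatives, and 0 differences of genotype effects between tissues under all 20. In spleen, where 1 member was called, the count was 0 without a filter and without both libraries with pancreas transcripts, 2 with a filter at 1 FPKM and with sample weights, 3 after rescaling to TPM and in a fit of all 12 libraries, and 0 to 3 with a library left out. *Cpa3* was called in 11 of 16 alternatives (adjusted p from limma 0.00677 to 0.137), *Prss34* in 5 (0.0273 to 0.143) and *Mcpt8* in 3 (0.0341 to 0.188). In lung the adjusted p ranged from 0.0899 to 0.416 for *Cma1* and from 0.0952 to 0.441 for *Mcpt4*. The calls over all genes in spleen moved from 1401 (567 higher) to 5959 (712 higher) under TPM, 699 (510 higher) under median-of-ratios scaling and 51 without the libraries with pancreas transcripts. In lung they ranged from 7, without WT lung 1, to 153, in a fit of all 12 libraries, against 52, of which 47 were higher; under TPM 45 of 59 were higher. For the difference of effects they ranged from 3, without WT spleen 2, to 885, without β3-/- spleen 2, against 68, of which 33 were higher; under TPM 130 of 187 and under median-of-ratios scaling 34 of 99 were higher. Between β3-/- lung and spleen 3 to 6 members were called with a library left out, *Prss34* always among them. The count was 3 without β3-/- lung 2, β3-/- spleen 2 or β3-/- spleen 3. Under TPM 7139 of 10977 called genes were higher in β3-/- lung, against 5750 of 11063. The cause of these shifts was not tested.

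With replicate number as a block, members called were 0 in lung and 1 in spleen, with 20 and 1746 genes called in all. Same-numbered mice of the genotypes share only a number (correlation of deviations -0.04 to 0.20 in lung and 0.08 to 0.27 in spleen). With mouse as a block, members called were 0 for the difference of effects, 6 between β3-/- lung and spleen (*Cma1* added) and 3 between WT lung and spleen. *Prss34* is included in both tissue counts. It entered them through its spleen libraries, being under the filter in lung, so its part in them is a description. The block changed no other call of a member.

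Only values that were not called changed sign. *Gata2* in lung was -0.038 under TPM and -0.044 with the *Ubb* group as a term, and -0.087 to 0.13 with a library left out. *Ms4a2* in spleen was 3e-05 with a pseudocount of 1, 0.13 under median-of-ratios scaling, 0.012 with sample weights and -0.16 to 0.17 with a library left out. *Il3ra* in spleen was -0.13 under TPM and -0.079 to 0.15 with a library left out. *Cma1* between WT lung and spleen was -0.19 with sample weights and -0.17 to 0.40 with a library left out. With a library left out, *Ms4a2* ranged from -0.079 to 0.57 in lung, from -0.077 to 0.57 in the difference of effects and from -0.029 to 0.62 between WT lung and spleen, *Mcpt4* from -0.38 to 0.75 in spleen and from -0.13 to 0.84 between WT lung and spleen, and *Tpsb2* from -0.79 to 0.23 in the difference of effects.

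A pseudocount of 1 in place of 0.1 drew the low genes towards 0 and one of 0.01 moved them away from it. The log2 fold change of *Cma1* in lung was 0.81 and 1.26, that of *Prss34* in spleen 1.66 and 2.71, that of *Mcpt8* in spleen 1.39 and 2.55, and that of *Tpsb2* in spleen 0.42 and 2.71. *Fcer1a* in lung ranged from -0.995 to -0.0087 with a library left out.

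Depth is unknown, and 6 of 10 members lay below 1 FPKM in every lung, so small differences of these genes could not be resolved with 3 mice per group.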
